A study of Homo sapiens with 6 samples.

Results

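The 5 mitochondrial tRNA genes that lie on the plus strand between MT-CO3 and MT-ND5 are MT-TG, MT-TR, MT-TH, MT-TS2 and MT-TL2. They are 5 of the 22 mitochondrial tRNA genes, of the 37 mitochondrial genes and of the 99 rows of the isoform table analysed here. They were selected by gene name and position, but chosen by their higher FPKM in one group of these same libraries, which was already known, so the values of that difference are a description and carry no test. The source of the RNA was LNCaP-AI, a prostate cancer cell line labelled as castration-resistant, whose parent line LNCaP responds to androgen. In 3 libraries the cells carried sh_0092339, a hairpin against the circular RNA hsa_circ_0092339, and in 3 libraries they carried the vector as negative control. All sh_0092339 libraries bear 1 hairpin name, so whether a difference goes through the circular RNA or through another RNA that the hairpin reaches cannot be told apart. The circular RNA itself was not analysed here. Neither were the markers of prostate luminal cells, of which 0 of 9 had a row among those searched.

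Mitochondrial DNA is transcribed from both strands as long precursor RNAs, in which tRNAs stand between the mRNAs and rRNAs like punctuation marks. RNase P cuts at the 5′ end of most of these tRNAs and ELAC2 at their 3′ end, and the cuts that free a tRNA also free its neighbours. The mature tRNA receives a CCA end, is modified and is charged by a mitochondrial aminoacyl-tRNA synthetase for translation of the respiratory chain subunits. A fragment over a tRNA gene can come from the mature tRNA or from an uncut precursor, and the deposited values do not separate these. No source used here says if counting took account of strand, so antisense RNA over the same bases cannot be told apart either.

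The sequences of the 5 tRNA genes are shown because their borders with the neighbouring genes are what each value is set against below. They are printed 5′ to 3′ on the plus strand, from the GENCODE 29 transcripts (GRCh38), with the anticodon in capitals. The anticodon was found from the codons named in the table, at the place where the 5 bases on either side of the loop paired best.
MT-TG: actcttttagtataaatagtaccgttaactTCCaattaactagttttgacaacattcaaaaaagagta
MT-TR: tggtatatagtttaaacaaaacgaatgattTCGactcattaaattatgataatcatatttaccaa
MT-TH: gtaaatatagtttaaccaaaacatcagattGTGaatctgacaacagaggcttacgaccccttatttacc
MT-TS2: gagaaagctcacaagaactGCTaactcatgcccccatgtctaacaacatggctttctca
MT-TL2: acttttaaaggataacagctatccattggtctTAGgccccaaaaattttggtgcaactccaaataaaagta

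MT-TG (ENSG00000210164, chrM:9991-10058) is the glycine tRNA and stands between MT-CO3 and MT-ND3. MT-TR (ENSG00000210174, chrM:10405-10469), the arginine tRNA, stands between MT-ND3 and MT-ND4L. MT-TH (ENSG00000210176, chrM:12138-12206) for histidine, MT-TS2 (ENSG00000210184, chrM:12207-12265) for serine codons AGU and AGC, and MT-TL2 (ENSG00000210191, chrM:12266-12336) for leucine codons CUN follow each other without a gap between MT-ND4 and MT-ND5. The tables name the chromosome MT, and all 37 mitochondrial rows have the same start, end and strand in GENCODE 29. All 5 tRNA genes are single-exon and adjoin a plus-strand gene on both sides with 0 bases between, which holds for 1 of the 17 other mitochondrial tRNA genes. They are 59 to 71 bases long. MT-TS2, the shortest, lacks the D arm that other tRNAs have. The share of A and T ran from 54.2% in MT-TS2 to 76.9% in MT-TR, with a median of 64.8%, and in the 17 other mitochondrial tRNAs from 50.7% to 76.5%, with a median of 59.2%. The first 7 bases could pair with the opposite 7 near the 3′ end at all 7 positions in MT-TG, MT-TH, MT-TS2 and MT-TL2 and at 6 in MT-TR, counting G-T pairs.

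Values are FPKM, fragments scaled to the length of the gene and to the mapped fragments of the library, and estimated counts, both as the authors deposited them. The sh_0092339 libraries held 53127020, 80559726 and 73620788 mapped fragments and the vector libraries 58091756, 58606592 and 68990788, as recovered from the scaling of the FPKM values. The 37 mitochondrial genes took 7.50% to 8.01% of them in the sh_0092339 libraries and 7.88% to 8.59% in the vector libraries. A count here is the FPKM value multiplied back by length and depth and rounded up, so it estimates coverage and gives no counting interval. The labels do not say that the libraries of a group came from separate cultures, so their spread may be technical.

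All 5 tRNAs were higher on average in the sh_0092339 libraries, by ratios of the group means from 2.66 to 3.50. All 5 had far lower FPKM than the mRNAs around them. Together they had 670.6, 325.5 and 418.7 FPKM in sh_0092339 libraries 1 to 3, against 80.9, 97.4 and 257.9 FPKM in vector libraries 1 to 3. Every sh_0092339 library stood above every vector library in this sum, and vector library 3 stood apart from the other vector libraries. In estimated counts the sums were 2367, 1731 and 2041 in sh_0092339 libraries and 314, 384 and 1180 in vector libraries. In bulk RNA, more RNA per cell and a larger share of cells that hold it cannot be told apart.

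**Figure D1:**
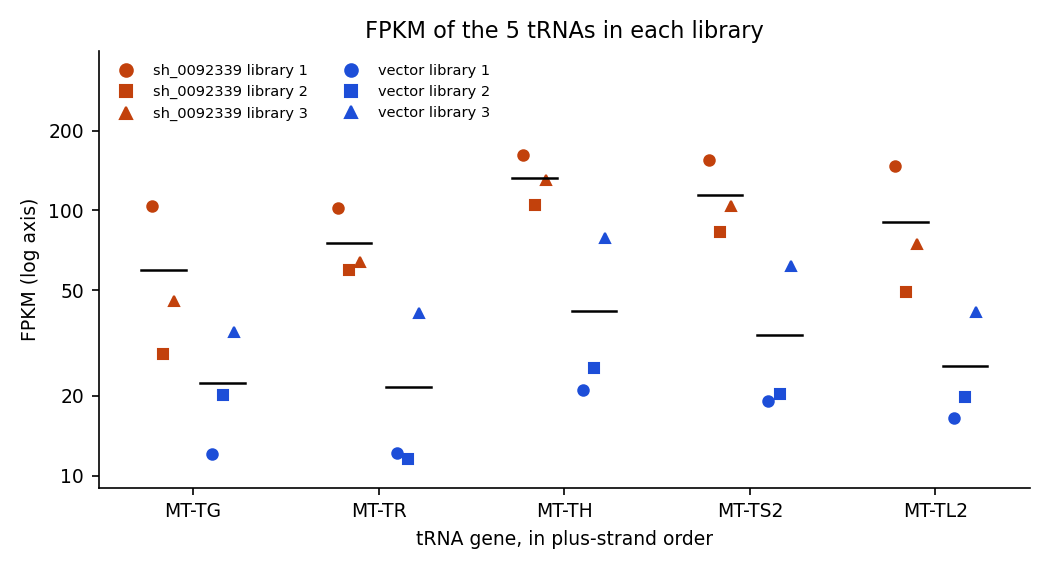
FPKM on a log axis for each of the 5 tRNAs in each of the 6 libraries, sh_0092339 on the left and vector on the right of each gene, with a bar at the group mean. The sh_0092339 libraries lie above the vector libraries for 4 of the 5 tRNAs, and for MT-TG vector library 3 (34.8 FPKM) lies above sh_0092339 library 2 (28.8 FPKM).

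MT-TG had 104 (library 1), 28.8 (library 2) and 45.5 FPKM (library 3) in the sh_0092339 libraries, against 12.1, 20.2 and 34.8 FPKM in vector libraries 1, 2 and 3. The groups overlapped, since vector library 3 exceeded sh_0092339 library 2, and the mean of the sh_0092339 group rested on library 1. MT-TG averaged 59.5 ± 39.6 FPKM with sh_0092339 and 22.4 ± 11.5 FPKM with vector (SD, n = 3 each), a ratio of 2.66. Its estimated counts were 377, 158 and 228 with sh_0092339 and 48, 81 and 164 with vector.

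MT-TR had 102, 59.7 and 63.8 FPKM in sh_0092339 libraries 1 to 3, against 12.1, 11.6 and 41.0 FPKM in vector libraries 1 to 3. The groups did not overlap, and vector libraries 1 and 2 were nearly equal, while library 3 was 3.46 times their mean. MT-TR averaged 75.2 ± 23.3 FPKM with sh_0092339 and 21.6 ± 16.8 FPKM with vector, a ratio of 3.48. Its 2 lowest estimated counts, 46 and 45 in vector libraries 1 and 2, were the lowest of the 5 tRNAs in any library.

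MT-TH, the first gene of the adjoining trio, had 161.5, 104.8 and 130.5 FPKM in sh_0092339 libraries 1 to 3, against 21.1, 25.6 and 78.7 FPKM in vector libraries 1 to 3. It was the highest of the 5 tRNAs in all 6 libraries, and its groups did not overlap. The averages were 132.3 ± 28.4 FPKM with sh_0092339 and 41.8 ± 32.0 FPKM with vector, a ratio of 3.16. Counts were 592, 583 and 663 with sh_0092339 and 85, 104 and 375 with vector.

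MT-TS2 had 155.6, 83.0 and 104 FPKM in sh_0092339 libraries 1 to 3, against 19.1, 20.3 and 62.0 FPKM in vector libraries 1 to 3. It was second to MT-TH in all 6 libraries, and its groups did not overlap. MT-TS2 averaged 114.2 ± 37.4 FPKM with sh_0092339 and 33.8 ± 24.4 FPKM with vector, a ratio of 3.38.

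MT-TL2, the last gene before MT-ND5, had 147.4, 49.2 and 75.0 FPKM in sh_0092339 libraries 1 to 3, against 16.5, 19.8 and 41.4 FPKM in vector libraries 1 to 3. The groups did not overlap, but sh_0092339 library 2 was only 1.19 times vector library 3. MT-TL2 averaged 90.6 ± 50.9 FPKM with sh_0092339 and 25.9 ± 13.5 FPKM with vector, a ratio of 3.50.

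Groups that did not overlap were thus seen for 4 of the 5 tRNAs. Over the 45 tested isoforms, every sh_0092339 library was above every vector library in 26.7%. The 45 hold all 37 mitochondrial isoforms, the 5 tRNAs among them. In the limma fit on log2(FPKM + 1) over the same 45 isoforms, 15.6% passed an adjusted p of 0.05 with a higher value in sh_0092339. Of the 5 tRNAs, 4 were among them, all but MT-TG, and nothing is read from that count because the contrast served to choose them. The log2 fold changes were 1.29 ± 0.57 (SE) for MT-TG, 1.95 ± 0.52 for MT-TR, 1.86 ± 0.50 for MT-TH, 1.89 ± 0.50 for MT-TS2 and 1.73 ± 0.50 for MT-TL2. They were the 5 highest of the 45, with a median of 1.86, against a median of 0.03 over all 45. The scale with 1 FPKM added slightly understates the change of the lowest values.

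The size of the difference depended on single libraries. Without vector library 3 the ratio of the group means became 6.33 for MT-TR, 5.67 for MT-TH, 5.79 for MT-TS2, 4.99 for MT-TL2 and 3.69 for MT-TG. Without sh_0092339 library 1 it became 1.66 for MT-TG, 2.40 for MT-TL2, 2.86 for MT-TR, 2.81 for MT-TH and 2.76 for MT-TS2. All ratios stayed above 1 when any 1 library was left out, which had to be so for the 4 tRNAs whose groups did not overlap. Since the contrast served to choose the 5, nothing is read from the calls and unadjusted p-values that follow. Over the 45 isoforms, limma called 7 higher without vector library 3, 5 without sh_0092339 library 2 and 2 without vector library 1. It called 0 higher without sh_0092339 library 1, sh_0092339 library 3 or vector library 2. How many of the 45 had an unadjusted p under 0.05 was not counted. The number of the 5 that passed the test was 4 without vector library 3 or sh_0092339 library 2 and 0 when any 1 of the other 4 libraries was left out (limma; 4 of the 5 were at an unadjusted p under 0.05 in each of those 4 fits). It was also 0 with edgeR on the counts, which called 8.89% of the 45 isoforms higher with TMM factors and 4.44% with depth alone (4 of the 5 tRNAs were at an unadjusted p under 0.05 each time), and 4 with DESeq2 on the counts, which called 22.2%.

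**Figure D2:**
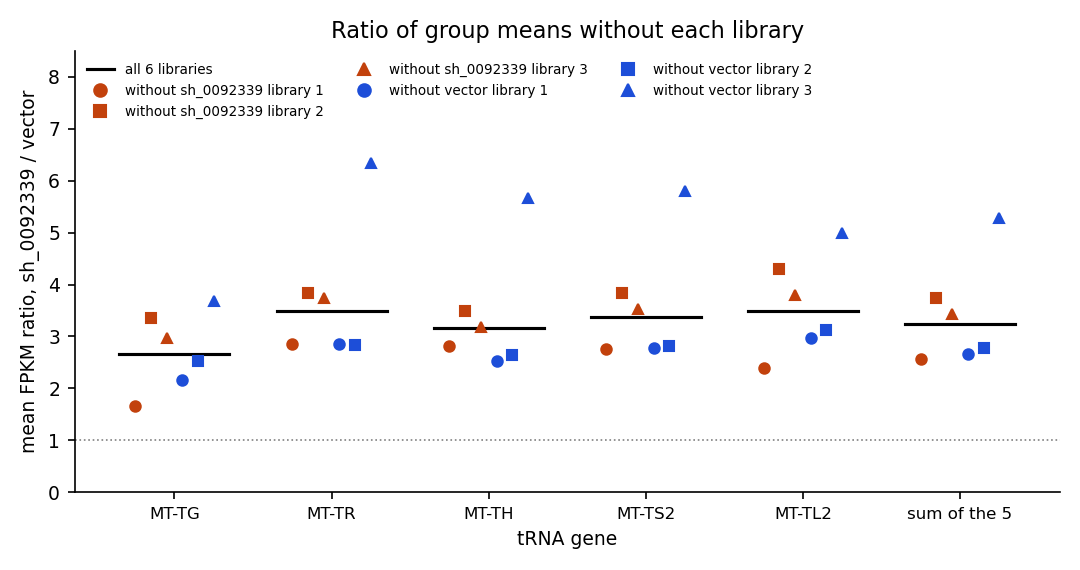
Ratio of mean FPKM, sh_0092339 over vector, for each of the 5 tRNAs and their sum, with all 6 libraries (bar) and with 1 library left out (points); the dotted line marks a ratio of 1. Leaving out vector library 3 gives the highest ratio for each tRNA, and the points run from 1.66 for MT-TG to 6.33 for MT-TR.

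The mRNAs around the tRNAs, which encode subunits of respiratory complexes I and IV, had far higher FPKM and differed far less between the groups. Whether the FPKM of genes of 59 to 71 bases follows the abundance of the mature tRNAs was not tested. MT-CO3, a subunit of cytochrome c oxidase just upstream of MT-TG, had 8455, 8100 and 7830 FPKM with sh_0092339 and 7358, 7153 and 6669 FPKM with vector. It was higher in every sh_0092339 library, by a log2 fold change of 0.20 ± 0.05 (limma adjusted p = 0.0317), but over 14 alternatives the adjusted p ran from 0.00971 to 0.648. It was not called without sh_0092339 library 1, 2 or 3 or without vector library 2 or 3, with adjusted p between 0.0557 and 0.114.

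MT-ND3, a complex I subunit between MT-TG and MT-TR, had 2708, 2783 and 2812 FPKM with sh_0092339 and 2681, 2494 and 2649 FPKM with vector. Its groups did not overlap, but the difference did not pass the test (limma adjusted p = 0.195). For MT-ND4L, MT-ND4 and MT-ND5, complex I subunits too, the groups overlapped. MT-ND4L averaged 6513 ± 271 FPKM with sh_0092339 and 6405 ± 234 FPKM with vector, and its sign turned with edgeR's TMM factors, with 2 other scalings and without sh_0092339 library 1. MT-ND4 averaged 8394 ± 248 FPKM with sh_0092339 and 8519 ± 399 FPKM with vector, and its sign turned with quantile normalization and without sh_0092339 library 3 or vector library 1. MT-ND5 averaged 2589 ± 239 FPKM with sh_0092339 and 2408 ± 129 FPKM with vector. None of these 3 passed the test (limma adjusted p = 0.722, 0.751 and 0.385 in this order). Scaled to the summed mitochondrial mRNAs, MT-ND4 passed it as lower in sh_0092339 (log2 fold change -0.07, limma adjusted p = 0.0201). It was called under 1 of the 14 alternatives. Its adjusted p was 0.125 by edgeR with TMM factors and 0.774 by edgeR with depth alone, and reached 1.0 by limma with no filter on low values.

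**Figure D3:**
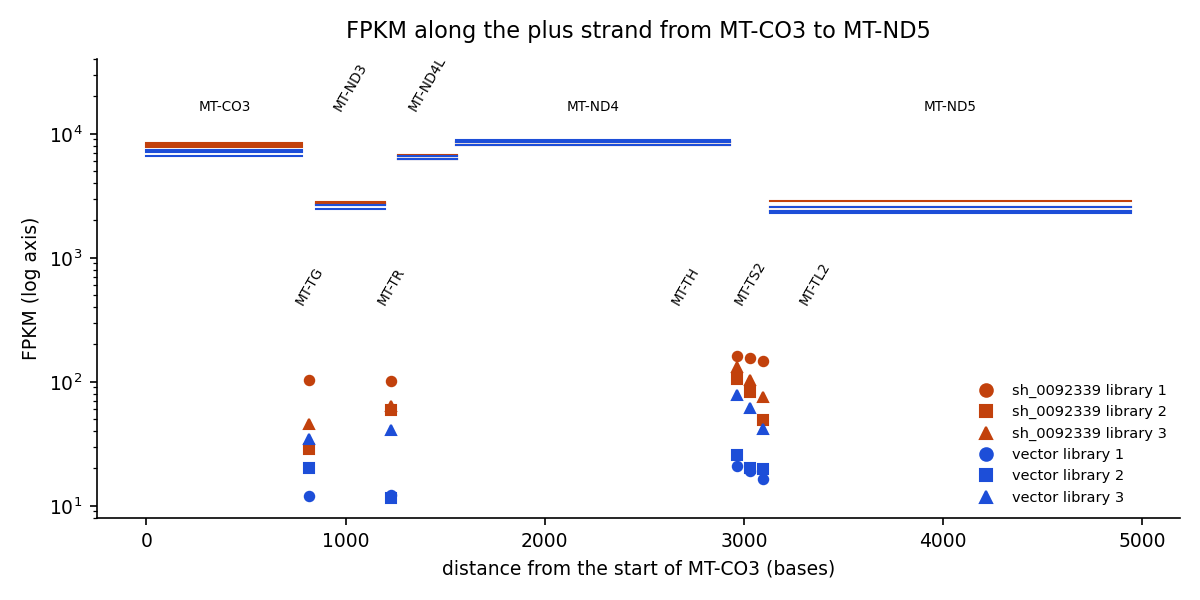
FPKM on a log axis against the distance in bases from the start of MT-CO3, with a line over the length of each mRNA and a point at the centre of each tRNA, in each library. The mRNAs lie between 2295 and 8892 FPKM with nearly the same level in all 6 libraries, and the tRNAs lie between 11.6 and 161.5 FPKM with a wide spread.

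Each tRNA was then set against the nearest mRNA on either side, per library, so that a change of the whole stretch cancels. MT-TG reached 1.23%, 0.356% and 0.581% of the FPKM of MT-CO3 in sh_0092339 libraries 1 to 3, against 0.164%, 0.282% and 0.522% in vector libraries 1 to 3. MT-TG was 2.17 ± 1.48% of MT-ND3 with sh_0092339 and 0.858 ± 0.434% with vector. For MT-TG the groups overlapped on both sides, as in its FPKM values.

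MT-TR was 2.73 ± 0.902% of MT-ND3 with sh_0092339 and 0.822 ± 0.629% with vector, and 1.15 ± 0.322% of MT-ND4L with sh_0092339 and 0.331 ± 0.246% with vector. MT-TH was 1.88%, 1.23% and 1.61% of MT-ND4 in sh_0092339 libraries 1 to 3, against 0.237%, 0.316% and 0.919% in vector libraries 1 to 3. Relative to MT-ND5 it was 5.10 ± 0.858% with sh_0092339 and 1.78 ± 1.44% with vector. The share was thus higher against MT-ND5, the less abundant mRNA, in both groups.

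MT-TS2 was 1.36 ± 0.425% of MT-ND4 with sh_0092339 and 0.396 ± 0.284% with vector, and 4.37 ± 1.11% of MT-ND5 with sh_0092339 and 1.43 ± 1.10% with vector. MT-TL2 was 1.07 ± 0.585% of MT-ND4 with sh_0092339 and 0.304 ± 0.157% with vector, and 3.43 ± 1.64% of MT-ND5 with sh_0092339 and 1.09 ± 0.620% with vector. For MT-TR, MT-TH, MT-TS2 and MT-TL2 the groups did not overlap on either side. The ratio of the group means lay between 2.24 (MT-TG to MT-CO3) and 3.53 (MT-TL2 to MT-ND4) over the 10 pairs of tRNA and mRNA, close to the ratios of the tRNAs alone. Without vector library 3 the ratio was more than 1.5 times its value for the pairs of MT-TR, MT-TH and MT-TS2, with 6.07 for MT-TR to MT-ND4L as the highest, and without sh_0092339 library 1 it was 1.45 for MT-TG to MT-CO3 and 1.55 for MT-TG to MT-ND3.

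**Figure D4:**
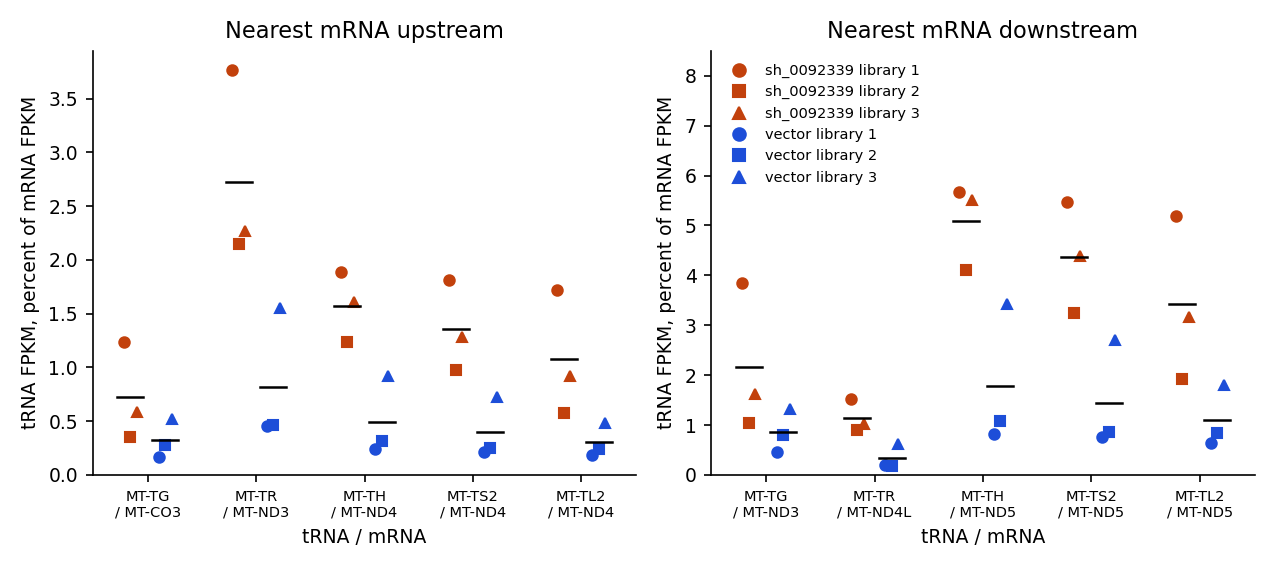
FPKM of each tRNA as a percent of the FPKM of the nearest mRNA upstream (left panel) and downstream (right panel), per library, with a bar at the group mean. Values reach 3.77% upstream, for MT-TR in sh_0092339 library 1, and 5.68% downstream, for MT-TH in the same library.

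The 5 tRNAs moved together from library to library within each group. For all 5, library 1 was the highest of the sh_0092339 group and library 3 the highest of the vector group. Among the 17 other mitochondrial tRNAs, sh_0092339 library 1 was highest of its group for 5 and vector library 3 for 7. Most of those 7 were plus-strand tRNAs, among them MT-TI, MT-TK and MT-TW. The high place of vector library 3 was thus not particular to the 5. Among the 13 mRNAs these counts were 6 for sh_0092339 library 1 and 1 for vector library 3. On the log2(FPKM + 1) scale, sh_0092339 library 1 deviated from its group mean by 0.31 (MT-TH) to 0.999 (MT-TG), and vector library 3 from its own by 0.74 (MT-TG) to 1.15 (MT-TH). The largest deviation of a flanking mRNA in these libraries was 0.14, for MT-ND5 in sh_0092339 library 1.

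The order was the same at the low end. In sh_0092339 library 2 all 5 had their lowest value of the sh_0092339 group, and in vector library 1 all but MT-TR had the lowest of the vector group. Depth moved with this in opposite ways: sh_0092339 library 1 was the shallowest of its group, with 53127020 fragments, and vector library 3 the deepest of its group, with 68990788. Its part in the result was not tested. MT-RNR2, the 16S rRNA, had no such spread, with 2346, 2282 and 2213 FPKM in sh_0092339 libraries 1 to 3 and 5182, 4854 and 5096 FPKM in vector libraries 1 to 3.

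The spread within a group, as SD over mean, was 21.5% to 66.6% for the 5 tRNAs with sh_0092339 and 51.6% to 78.0% with vector. In the 17 other mitochondrial tRNAs it ran from 2.66% to 68.5% with sh_0092339, with a median of 11.3%, and from 1.69% to 42.6% with vector, with a median of 10.9%. The highest with sh_0092339 was that of MT-TS1, a serine tRNA on the minus strand, which was above all of the 5. MT-TK had 30.2% with sh_0092339 and 42.5% with vector. MT-TH was the most even of the 5 with sh_0092339 (21.5%) and MT-TG the most uneven (66.6%). With vector, MT-TR was the most uneven (78.0%) and MT-TG the most even (51.6%).

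Likeness between members was measured as the root mean square difference of their log2(FPKM + 1) values, each centred over the 6 libraries. Over the 10 pairs it ran from 0.09, for MT-TR and MT-TS2, to 0.54, for MT-TG and MT-TR. MT-TR, MT-TH and MT-TS2 were within 0.15 of each other, although MT-TR lies apart from the other 2, before MT-ND4L. MT-TG was nearest to MT-TL2, at 0.27, and those 2 had the larger excess in sh_0092339 library 1. All of these values share the same 6 libraries and their depth.

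Within the adjoining trio the level was lower with each step from 5′ to 3′: MT-TH was above MT-TS2 and MT-TS2 above MT-TL2 in 6 of 6 libraries. MT-TS2 was 0.792 to 0.963 times MT-TH in the sh_0092339 libraries and 0.788 to 0.906 times in the vector libraries. MT-TL2 was 0.470 to 0.913 times MT-TH in the sh_0092339 libraries and 0.525 to 0.783 times in the vector libraries. MT-TL2 came next after them in 4 libraries, and the lowest was MT-TG in 4 libraries and MT-TR in 2. Between neighbours in this order the group means differed by less than 1 SD. That SD is over libraries in which the 5 moved together, so it does not measure the spread of their order within a library. MT-TH and MT-TS2 made up 24.1% to 32.2% and 23.2% to 25.5% of the summed FPKM of the 5 in the sh_0092339 libraries, and 26.1% to 30.5% and 20.8% to 24.0% in the vector libraries.

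Among the 22 mitochondrial tRNAs, ordered by mean FPKM, the 5 took places 8 to 12 with sh_0092339 and places 9, 11 and 15 to 17 with vector. MT-TC, the cysteine tRNA on the minus strand, was the highest in both groups, with 1453 ± 209 FPKM with sh_0092339 and 2016 ± 92.3 FPKM with vector. The 5 tRNAs held 4.62% to 11.2% of the estimated counts on the 22 tRNAs in the sh_0092339 libraries and 1.01% to 3.15% in the vector libraries. The log2 fold change over the 17 other tRNAs had a median of -0.41 and ran from -2.19 to 0.82. Of these 17, 1 rose (MT-TI) and 6 fell, and 10 did not pass the limma test, by which 20% of the 45 isoforms fell.

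**Figure D5:**
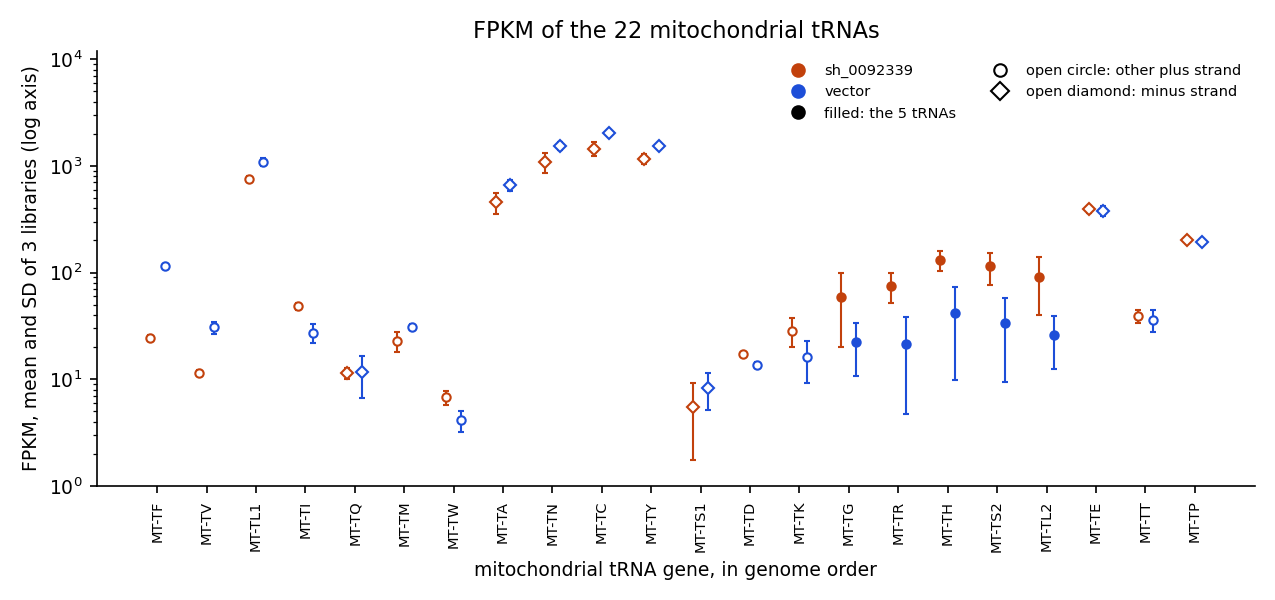
Mean FPKM and SD of 3 libraries on a log axis for the 22 mitochondrial tRNAs in genome order, sh_0092339 left of vector, with the 5 tRNAs between MT-CO3 and MT-ND5 filled. The 5 filled pairs have ratios of 2.66 to 3.50, and the open ones, the other tRNAs, have ratios of 0.213 to 1.77.

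The nearest plus-strand tRNAs outside the interval were MT-TK, the lysine tRNA before MT-ATP8, and MT-TT, the threonine tRNA after MT-CYB. MT-TK had 19.9, 28.7 and 37.1 FPKM in sh_0092339 libraries 1 to 3 and 10.1, 14.8 and 23.6 FPKM in vector libraries 1 to 3. Its groups overlapped, and unlike the 5 it was lowest in sh_0092339 library 1. In the vector group MT-TK was, like the 5, highest in library 3. That library was 1.90 times the mean of vector libraries 1 and 2, against 2.16 (MT-TG) to 3.46 (MT-TR) for the 5. MT-TT had 41.4, 32.5 and 42.9 FPKM with sh_0092339 and 45.6, 28.99 and 34.1 FPKM with vector, also with overlap. The ratios of the group means were 1.77 for MT-TK and 1.07 for MT-TT, against 2.66 for MT-TG and 3.50 for MT-TL2 at the ends of the interval.

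The profile most like the sum of the 5, among the other 40 tested isoforms and over the 6 libraries, was that of MT-TI, the isoleucine tRNA after MT-ND1, with a root mean square difference of 0.70. MT-TK (0.75) and MT-TW, the tryptophan tRNA after MT-ND2 (0.79), came next. From a profile with no difference between libraries, MT-TI lay at 0.44, MT-TK at 0.58 and MT-TW at 0.36, so all 3 were nearer to a flat profile than to the sum of the 5, which itself lay at 1.09 from flat. Their distances from the sum were also above the 0.54 that was the highest between members. Nothing is read from this, since the measure holds the difference between groups by which the 5 were chosen. MT-TI had 48.3, 44.9 and 51.5 FPKM with sh_0092339 and 26.5, 22.2 and 33.5 FPKM with vector (limma adjusted p = 0.0259, not called under 6 of 14 alternatives). MT-TW was far lower, with 7.90, 6.12 and 6.26 FPKM with sh_0092339 and 4.59, 3.05 and 4.69 FPKM with vector, and did not pass the test (limma adjusted p = 0.0667), but its groups did not overlap and it was called under 5 of 14 alternatives, with adjusted p from 0.0293 to 0.203 over the limma, edgeR and DESeq2 fits. All 3 are plus-strand tRNAs.

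The list of nuclear genes for mitochondrial tRNA processing, modification and charging held 34, among them PRORP, ELAC2, TRNT1 and LARS2. Of these, 0 had a row in the parts of the 4 tables searched here, so they were not analysed. The isoforms, gene count identifiers and count transcripts searched were 99 each. Whether the full tables hold these genes was not seen.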

How the data were processed

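RNA of 6 libraries, 3 with sh_0092339 and 3 with vector, was sequenced by the submitters. Tools named in the submitters' processing notes are cutadapt, HISAT2 and StringTie (no versions), and the build is hg18, but the coordinates of the mitochondrial rows are those of GENCODE 29. FPKM values were deposited by the authors, per the file headers, with counts beside them per isoform. In 356 of 356 values above 0 the count was FPKM times length times depth rounded up (tolerance 0.01), so the authors' deposited counts are estimated counts and no tally of reads. The isoform length, a value of another kind deposited by the authors, served to recover the depth (the median of 23 or 24 isoforms of 1000 counts or more). The gene FPKM table and the gene and transcript count tables deposited by the authors were used only to look up genes; 98 of 99 gene identifiers and 88 of 99 transcripts had a name.

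The 99 isoform rows hold 37 mitochondrial transcripts and 62 of the X chromosome and are a part of the table. limma 3.58.1 (trend, R 4.3.3) was fitted to log2(FPKM + 1) of the 45 isoforms with a mean of at least 1 FPKM, all 5 tRNAs included, with Benjamini-Hochberg adjustment over the 45 and a threshold of 0.05. Fold changes are sh_0092339 over vector. Alternatives were a pseudocount of 0.1, no filter, edgeR 4.0.16 (quasi-likelihood) and DESeq2 1.42.0 on the estimated counts, scaling to the mitochondrial mRNAs, quantile normalization, the replicate number as a block and fits without each library. The limma and edgeR fits were also run on simulated counts. Their spread was set smaller than that of the 5 tRNAs, so this does not show how the tests perform for them. Within-group pairs of libraries differed by a chi-square of 103 to 266 per degree of freedom over the 37 mitochondrial rows. Since the counts are estimates, that value only describes the size of the difference. The FPKM values of the libraries in a group were not the same, so none was a repeated deposit. The 5 tRNAs and the lists were chosen with earlier results of these data known. By the rule for named genes, the text names the 5 tRNAs, their flanking mRNAs, the nearest plus-strand tRNAs outside, the 3 most alike profiles and the extremes of other sets. The counting of reads that also match nuclear copies of mitochondrial DNA is not given in the sources here.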

Additional observations from a re-analysis of the deposited data

How the results depend on the processing

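The log2 fold changes of the 5 tRNAs kept their sign under all 14 alternatives and lay between 0.70 and 2.52. In the fits without 1 library the sign had to hold for the 4 tRNAs whose groups did not overlap. The fold changes moved by less than the spread within groups in 68 of 70 values. The exceptions were MT-TS2 (1.07) and MT-TL2 (0.91) with quantile normalization. That spread is wide, so MT-TG at 0.70 with quantile normalization, against 1.29, still counts as unmoved. Leaving out the filter or adding the replicate block cannot change these values in the limma fit. The calls were less firm, and nothing is read from those of the 5 tRNAs or their p-values, since the contrast served to choose them. Of the 45 isoforms, 7 rose and 9 fell in the limma fit. With no filter on low values 0 rose and 5 fell by limma, with quantile normalization 2 rose and 3 fell, and with edgeR 4 rose and 11 fell (TMM) or 2 rose and 8 fell (depth only). Of the 5 tRNAs, 0 were called by limma or edgeR under each of these 4 settings, with 2 at an unadjusted p under 0.05 for quantile normalization and 4 for each of the others. Other settings called more: scaled to the mitochondrial mRNAs 9 rose and 13 fell, and with DESeq2 10 rose and 9 fell, with 4 of the 5 tRNAs called in each, as in the limma fit. With the replicate block 2 of the 5 were called, and 5 isoforms rose and 10 fell in all. The labels do not say if libraries of the same number belong together. Deviations of same-number pairs correlated at -0.26 to 0.22, above 0.1 in 1 of 3. Those of different numbers ran from -0.22 to 0.19, so the correlations cannot decide it. Without 1 library each, 0 to 7 isoforms rose, 5 to 11 fell, and 0 to 4 of the 5 tRNAs were called.

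MT-ND4L had a log2 fold change of -0.0113 with edgeR (TMM), -0.0216 when scaled to the mitochondrial mRNAs and -0.0220 with quantile normalization, against 0.0241. MT-ND4 had 0.0254 with quantile normalization, against -0.0207. Without 1 library each, they ran from -0.00063 to 0.0578 and from -0.0568 to 0.0107. The cause was not tested. By counts per base, the 10 ratios of a tRNA to an mRNA were nearly unchanged. They had to be, since each count was derived from the FPKM value, so they give no separate check. The estimated counts of the 5 tRNAs ran from 45 to 663 per library, with 3 libraries per group.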
